A study of Mus musculus with 12 samples.

Results

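The 10 genes followed here belong to the AP-1 transcription factor network, in mouse macrophages given plasminogen preparations. They were the FOS genes Fos, Fosb and Fosl2, the JUN genes Jun, Junb and Jund, the partner genes Atf3 and Batf, and the small MAF genes Maff and Mafk. They were chosen by name, as the rows of the deposited expression table that carry these 10 symbols, out of 32246 genes in all. The cells were bone marrow-derived macrophages, grown from mouse bone marrow over 7 days in 50 ng/mL GM-CSF, a growth factor that yields macrophages together with dendritic-like cells. Each of 3 groups of 4 libraries was then kept for 24 h: untreated cells, cells given PLG (read here as plasminogen) that had been exposed to EACA (a lysine analogue that plasminogen binds), named PLG+EACA, and cells given PLG exposed to EACA and RNases, named PLG+EACA+RNase. All groups shared the GM-CSF culture, and no group analysed here received EACA alone, RNases alone or PLG alone. The labels give no mouse strain, sex or age and leave unsaid which libraries stem from different animals or cultures, so each p-value measures the spread between these libraries, which may be technical.

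AP-1 is a dimer of basic leucine zipper (bZIP) proteins: a JUN protein pairs with itself, with a FOS protein or with a related partner, and the pair binds short DNA elements through its basic region. Fos, Jun and Atf3 are classical immediate early genes, whose transcripts appear and fade within hours of a stimulus. In macrophages AP-1 acts beside NF-kB and interferon-activated factors at inflammatory genes, while small MAF proteins lack an activation domain and pair with NRF2 and BACH proteins at antioxidant response elements.

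The libraries held 12940888 to 22677041 counted reads, recovered from the deposited values. All 7 macrophage markers (such as Csf1r, Cd68 and Lyz2) had a mean FPKM of at least 1 in every group, with a summed FPKM of 5189 to 5788 untreated, 3952 to 5785 under PLG+EACA and 3949 to 4468 under PLG+EACA+RNase. Most of that sum was Lyz2, and single markers differed in direction. Adgre1, Csf1r, Cd68, Itgam and Lyz2 had lower means in both treatments than in untreated cells, while Mertk and Fcgr1 had higher ones. Mean FPKM was 324.4, 186.5 and 185.7 for Csf1r and 5.97, 13.85 and 9.2 for Mertk in the 3 groups. Of 7 dendritic cell markers, 4 reached a mean FPKM of 1 in every group. The summed FPKM of the 7, mostly Itgax, was 569.9 to 621.4, 422 to 556.8 and 519 to 570.3 in the same order. Of 7 neutrophil markers 4 reached it (summed FPKM 12.4 to 53.4, 24.4 to 68 and 23.1 to 56.5), with Ly6g at 0 in all untreated libraries. No B cell marker and no T or NK cell marker reached it, with summed FPKM of at most 0.56 and 0.402. Of 5 stroma and endothelium markers 2 reached it in every group (summed FPKM 6.41 to 15.75, 1.96 to 16.7 and 2.62 to 11.2). Of 4 mast cell and basophil markers measured, 1 reached it untreated, 1 under PLG+EACA and 2 under PLG+EACA+RNase (summed FPKM 2.6 to 4.42, 1.545 to 1.82 and 1.735 to 6.475). The summed erythroid and megakaryocyte markers, nearly all Pf4, ran from 247.9 to 387.2 untreated, 109.1 to 183.8 under PLG+EACA and 125 to 206.2 under PLG+EACA+RNase. The part of such cell types in the results below was not tested, and in bulk RNA fewer cells of a type and less RNA per cell cannot be told apart. Replicate 4 of each treatment lay highest of its group on the second principal component, and results that change without these libraries are given with both values.

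The DNA upstream of 4 of these genes is shown because their transcripts moved in different directions and because the element that several bZIP pairs read can be seen in it. Each sequence is the 250 bases before the RefSeq start site on GRCm38.p6, written 5′ to 3′ on the gene's strand, and none overlaps an annotated exon. Capitals mark TGACNTCA, an element bound by JUN and ATF pairs, and TGACG, a core of the cAMP response element, on either strand. TGACNTCA holds TGACG only where N is G.
Fos, chr12:85473640-85473889, plus strand: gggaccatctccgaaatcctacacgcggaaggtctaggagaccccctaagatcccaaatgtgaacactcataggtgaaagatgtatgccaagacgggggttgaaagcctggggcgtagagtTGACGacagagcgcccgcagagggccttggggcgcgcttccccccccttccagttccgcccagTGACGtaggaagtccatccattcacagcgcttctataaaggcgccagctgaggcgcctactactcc
Jun, chr4:95052223-95052472, minus strand: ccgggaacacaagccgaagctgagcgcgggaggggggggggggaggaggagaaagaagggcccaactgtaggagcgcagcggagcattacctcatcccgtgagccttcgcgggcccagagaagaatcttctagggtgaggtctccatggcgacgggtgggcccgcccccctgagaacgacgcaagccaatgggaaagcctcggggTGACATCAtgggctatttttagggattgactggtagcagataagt
Junb, chr8:84978749-84978998, minus strand: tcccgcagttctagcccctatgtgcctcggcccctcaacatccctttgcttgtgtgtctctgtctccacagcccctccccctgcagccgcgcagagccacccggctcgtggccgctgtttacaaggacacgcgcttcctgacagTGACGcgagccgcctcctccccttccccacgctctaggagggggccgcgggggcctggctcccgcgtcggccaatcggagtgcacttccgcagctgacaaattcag
Maff, chr15:79347270-79347519, plus strand, the second of its 3 start sites: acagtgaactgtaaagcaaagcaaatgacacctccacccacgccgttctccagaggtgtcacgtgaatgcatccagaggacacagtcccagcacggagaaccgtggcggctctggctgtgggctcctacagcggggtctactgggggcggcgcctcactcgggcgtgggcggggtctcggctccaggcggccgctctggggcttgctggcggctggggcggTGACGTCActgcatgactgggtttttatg

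In these windows TGACNTCA lay from -45 to -38 before the start site of Jun and from -29 to -22 before the second start site of Maff. TGACG lay from -129 to -125 and from -66 to -62 in Fos, from -106 to -102 in Junb, and from -29 to -25 and -26 to -22 in Maff, the last pair inside its longer element. All 10 genes matched the RefSeq table, with 12 windows. The Jund window ends at chr8:70697738, well before the start of the Jund gene measured here, chr8:70698949. The windows of Fosb, Fosl2, Atf3, Batf, Mafk and the third start site of Maff overlap annotated exons. Of these 12, 3 held TGACNTCA (Jun and 2 start sites of Maff), against 7.49% of all 32851 windows of the same length, and 8 windows of 7 genes held TGACG, against 17.8%. The classical AP-1 element TGANTCA was in 0 of the 12, against 6.75% of all, and the CArG box, read by serum response factor, was in 0, against 1.47%. An NF-kB site was in 4 windows, those of Fos, Fosb, Fosl2 and the third start site of Maff, against 7.25%. These are matches of letters, on both strands, and no binding was measured. Elements outside the 250 bases were not searched, so a count of 0 does not mean that a gene lacks the element.

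Expression is given as FPKM, the reads of a gene for the length of the gene and the depth of the library, so levels can be set beside each other between genes. In untreated cells Atf3 had the highest level of the 10, at 253.8 ± 6.87 (mean ± SD, n = 4), followed by Junb (138.6 ± 5.13), Jund (67 ± 2.9), Jun (36.1 ± 0.911), Batf (24 ± 0.612), Fosl2 (19.7 ± 1.3), Maff (18.3 ± 0.719), Mafk (14.9 ± 0.54), Fos (3.37 ± 0.203) and Fosb (0.057 ± 0.0342). Only Fosl2 and Maff, neighbours in that order, had ranges that overlapped. Atf3, Junb and Jund also held the first 3 places in both treatments, and Batf, Fos and Fosb the last 3. Between them, Maff, Mafk, Jun and Fosl2 overlapped with their neighbours in PLG+EACA, while in PLG+EACA+RNase Maff overlapped Jund and Mafk overlapped Fosl2.

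**Figure D1:**
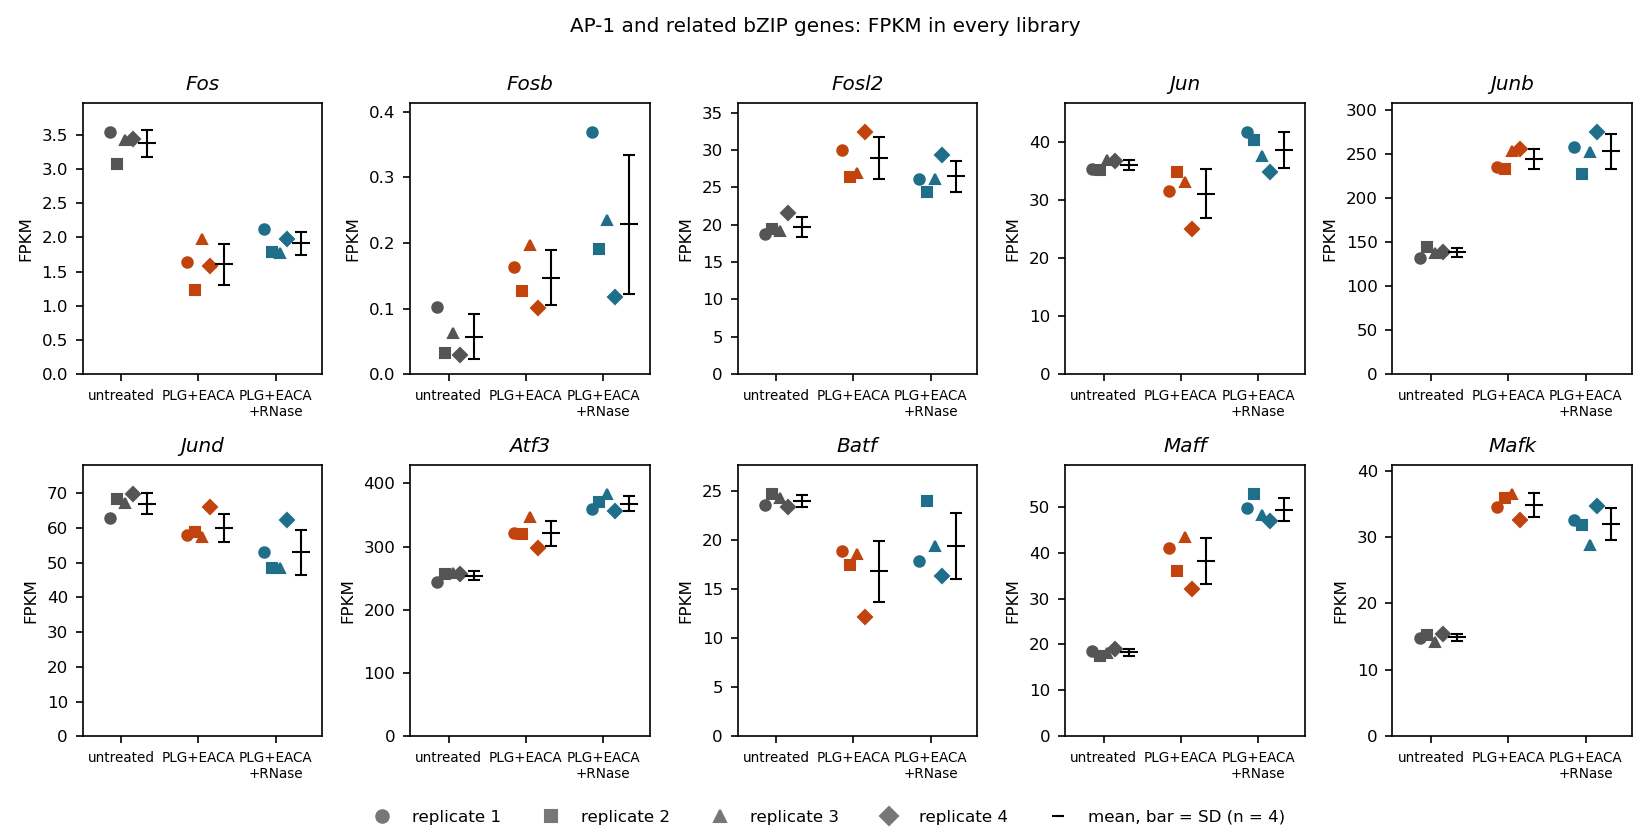
FPKM of the 10 genes in every library, 1 panel per gene with its own axis from 0; symbols mark replicates 1 to 4, and the bar beside each group is the mean with its SD (n = 4). Mafk, Maff and Junb sit in separate ranges in untreated and treated cells, while the ranges of Jund overlap between untreated cells and PLG+EACA.

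Against untreated cells, PLG+EACA libraries held more transcript of the small MAF genes, Junb, Fosl2 and Atf3, and less of Fos, Batf and Jun. In limma with Benjamini-Hochberg adjustment over the 11165 genes tested, 5 of the 9 tested members were higher and 3 lower, beside 68.3% of all genes called (14.9% higher and 53.4% lower). In 8 of the 9 the groups did not overlap, as in 64.6% of all genes. With PLG+EACA+RNase 5 members were higher and 2 lower, beside 64.4% of all genes (16% higher and 48.4% lower), and 7 did not overlap, as in 61.7% of all genes. The members were not tested as a group, and their counts are to be read against those shares. The 5 higher members were Fosl2, Junb, Atf3, Maff and Mafk in both comparisons, which share their untreated libraries. The tenth gene, Fosb, did not pass the filter on low values (FPKM of 1 or more in 4 or more libraries).

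The median tested gene differed by -0.26 (PLG+EACA) and -0.20 (PLG+EACA+RNase) from untreated cells on the log2(FPKM + 0.5) scale, on which all differences here are given, and the median over the 9 members was 0.34 and 0.41. Median-of-ratios scaling, which brings the median gene to -0.01 and 0.01, left 5 members higher and 1 lower (Fos) with PLG+EACA, beside 27.3% of all genes higher and 26.4% lower. With PLG+EACA+RNase it gave 6 higher and 1 lower, beside 28.4% and 26.4%. The calls of Fos, Fosl2, Junb, Atf3, Maff and Mafk held under both scalings, while those of Jun, Jund and Batf depended on the scaling, as given with each gene.

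**Figure D2:**
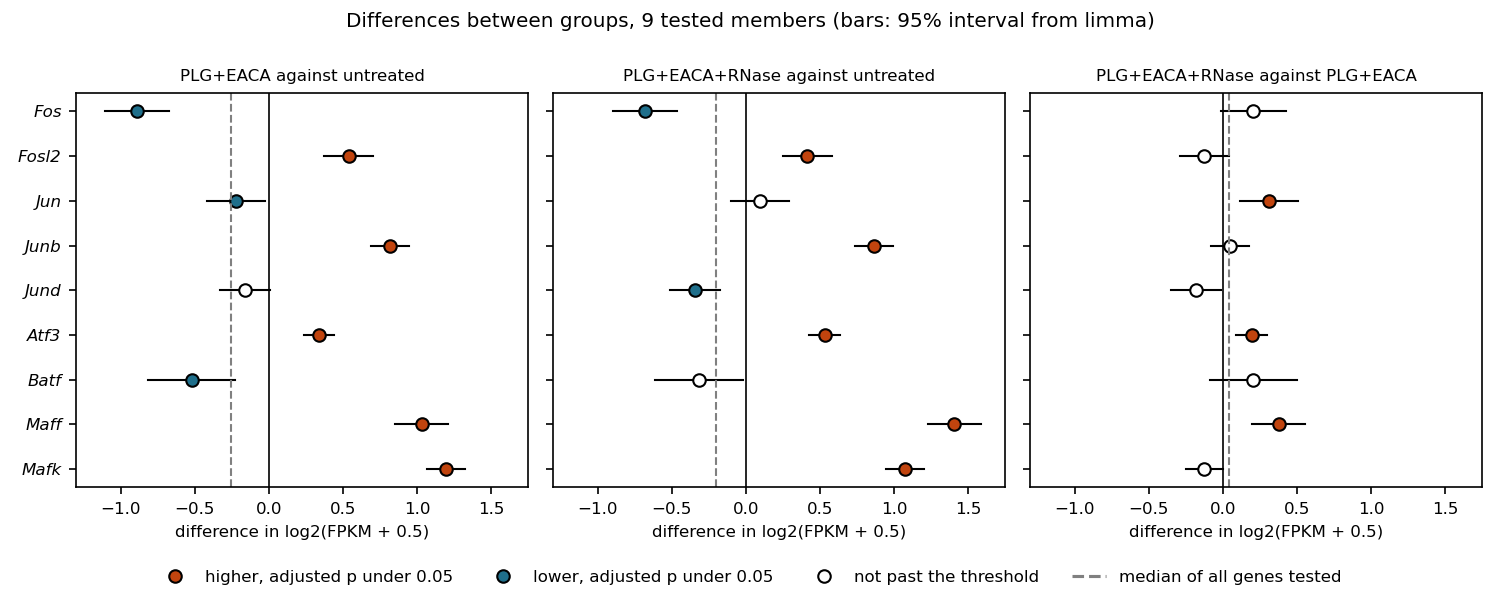
Difference in log2(FPKM + 0.5) between groups for the 9 tested genes, 1 panel per comparison, with bars for the 95% interval from limma, filled points for an adjusted p under 0.05 and a dashed line at the median of all genes tested. Maff, Mafk and Junb lie farthest to the right against untreated cells, Fos lies left of both lines, and Maff, Jun and Atf3 are the filled points between the treatments. The direction of Jun and of Jund with PLG+EACA turned under median-of-ratios scaling.

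The JUN proteins are the core of AP-1, since each can pair with itself or with any FOS protein. Junb, whose product is a weaker activator than JUN at many sites and is prominent in activated immune cells, lies at chr8:84974484-84978718 on the minus strand of GRCm38 (ENSMUSG00000052837.6). Its FPKM in replicates 1 to 4 was 133, 145, 138 and 139 untreated, 236, 234, 254 and 256 under PLG+EACA and 258, 227, 252 and 276 under PLG+EACA+RNase. Every treated library lay above every untreated one, and the treatments overlapped. Junb rose by 0.82 with PLG+EACA (SE 0.0586, 1.76-fold, adjusted p = 4.63e-07, limma). It rose by 0.87 under PLG+EACA+RNase (SE 0.0586, 1.82-fold, adjusted p = 3.59e-07, limma). The difference between the treatments was 0.05 (95% interval -0.08 to 0.18, adjusted p = 0.591, limma), which did not pass the test. Exons of Prdx2 on the opposite strand cover 173 bases of Junb, 7.52% of its exons, at a Prdx2 FPKM of 36.2 to 51. Prdx2 lay well below Junb in each group, and whether reads were counted by strand is not given in the sources used here.

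Jun, the founding member of the family and a target of its own protein, is an intronless gene at chr4:95049034-95052222 on the minus strand (ENSMUSG00000052684.4). Its FPKM was 35.3, 35.3, 36.9 and 36.8 untreated, 31.6, 34.8, 33.1 and 25.1 under PLG+EACA and 41.8, 40.4, 37.5 and 34.8 under PLG+EACA+RNase. PLG+EACA lay below untreated cells throughout, though its highest library, replicate 2, lay close to the lowest untreated one, and PLG+EACA+RNase spanned the untreated range. Jun was called lower with PLG+EACA, at a difference of -0.22 (SE 0.0899, 1.17-fold, adjusted p = 0.0458, limma). That call was lost, at an adjusted p of 0.0522 to 0.103 in limma, without any 1 of untreated replicates 1 to 4, PLG+EACA replicates 1 or 4, or PLG+EACA+RNase replicates 2 or 3. The difference was -0.12 without PLG+EACA replicate 4, the lowest library, and turned to 0.05 (adjusted p = 0.568, limma) with median-of-ratios scaling. The call was also lost with no filter on low values (adjusted p = 0.113, limma). With PLG+EACA+RNase, Jun differed from untreated cells by 0.09 (95% interval -0.10 to 0.29, adjusted p = 0.378, limma), which did not pass, but was called higher, by 0.32 (adjusted p = 0.0031, limma), with median-of-ratios scaling and, by 0.14 (adjusted p = 0.0232, limma), without both treated replicate 4 libraries.

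Between the treatments, Jun was higher with PLG+EACA+RNase by 0.31 (SE 0.0899, 1.24-fold, adjusted p = 0.0309, limma). The lowest PLG+EACA+RNase library, replicate 4, lay just below the highest PLG+EACA library, replicate 2, so the ranges touched. The call was lost in limma without PLG+EACA replicate 1 (adjusted p = 0.0514) or PLG+EACA+RNase replicate 1, 2 or 3 (adjusted p = 0.078, 0.085 and 0.0662) and with no filter on low values (adjusted p = 0.0619), and was kept, at 0.26 (adjusted p = 0.00484, limma), without both treated replicate 4 libraries. The antisense gene Junos shares 232 exonic bases with Jun, 7.28% of its exons, at an FPKM of 0.624 to 1.66, far under that of Jun.

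Jund, whose product is the most constantly expressed JUN protein and is linked to resting cells, is an intronless gene at chr8:70698949-70700616 on the plus strand (ENSMUSG00000071076.6). Its FPKM was 63.0, 68.2, 67.0 and 69.7 untreated, 57.9, 58.8, 57.4 and 66.0 under PLG+EACA and 53.0, 48.4, 48.5 and 62.2 under PLG+EACA+RNase. Replicate 4 was the highest library of each group, and with PLG+EACA it alone overlapped the untreated range. The difference with PLG+EACA was -0.16 (95% interval -0.33 to 0.01, adjusted p = 0.0888, limma), which did not pass. It passed without PLG+EACA replicate 4 (-0.20, adjusted p = 0.0379, limma), without PLG+EACA+RNase replicate 4 (adjusted p = 0.0243, limma) and without both of these libraries (adjusted p = 0.00272, limma). With median-of-ratios scaling the difference turned to 0.12 (adjusted p = 0.314, limma).

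With PLG+EACA+RNase Jund fell by 0.34 on the log2 scale (SE 0.0776, 1.27-fold, adjusted p = 0.00213, limma), in 4 of 4 libraries below the untreated range. With median-of-ratios scaling the difference was -0.11 (adjusted p = 0.35, limma). Between the treatments Jund differed by -0.18 (95% interval -0.35 to -0.01, adjusted p = 0.112, limma), which passed only without PLG+EACA+RNase replicate 4 (adjusted p = 0.00876, limma) and without both treated replicate 4 libraries (-0.22, adjusted p = 0.0107, limma), among the single libraries and the pair left out. The annotated antisense gene Gm11175, not analysed here, covers 877 bases of Jund, 52.6% of its exons, so the Jund values are uncertain if reads were counted without regard to strand.

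The FOS proteins cannot pair with each other and need a JUN partner. Fos, the classical immediate early member, lies at chr12:85473890-85477273 on the plus strand (ENSMUSG00000021250.13). Its FPKM was 3.54, 3.08, 3.43 and 3.44 untreated, 1.64, 1.24, 1.98 and 1.58 under PLG+EACA and 2.13, 1.79, 1.77 and 1.98 under PLG+EACA+RNase, from 54 to 181 recovered reads per library. Every treated library lay below every untreated one, and the treatments overlapped. Fos fell by 0.89 on the log2 scale with PLG+EACA (SE 0.0994, 1.85-fold, adjusted p = 1.06e-05, limma). It fell by 0.68 under PLG+EACA+RNase (SE 0.0994, 1.60-fold, adjusted p = 8.82e-05, limma). Both decreases passed in each alternative run. The treatments differed by 0.21 (95% interval -0.01 to 0.42, adjusted p = 0.156, limma), which did not pass, but did without PLG+EACA replicate 3, the highest library of its group (adjusted p = 0.0469, limma).

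Fosl2 (FRA2), a longer-lived FOS protein that lacks the strong activation domain of FOS, lies at chr5:32135801-32157842 on the plus strand (ENSMUSG00000029135.10). Its FPKM was 18.7, 19.4, 19.2 and 21.6 untreated, 30.0, 26.4, 26.9 and 32.4 under PLG+EACA and 26.0, 24.3, 26.2 and 29.3 under PLG+EACA+RNase. Fosl2 moved opposite to Fos: no treated library reached down to the untreated range, the treatments overlapped, and replicate 4 was the highest of each group. Fosl2 rose by 0.54 with PLG+EACA (SE 0.0763, 1.45-fold, adjusted p = 6.32e-05, limma). It rose by 0.41 under PLG+EACA+RNase (SE 0.0763, 1.33-fold, adjusted p = 0.000489, limma). The treatments differed by -0.12 (95% interval -0.29 to 0.04, adjusted p = 0.261, limma), which did not pass.

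Fosb, an immediate early gene like Fos, lies at chr7:19302696-19310051 on the minus strand (ENSMUSG00000003545.3). It was near the limit of detection, with an FPKM of 0.103, 0.033, 0.063 and 0.029 untreated, 0.164, 0.127, 0.197 and 0.101 under PLG+EACA and 0.369, 0.190, 0.235 and 0.118 under PLG+EACA+RNase. These values rest on 3 to 14 reads per untreated library, 11 to 22 with PLG+EACA and 14 to 47 with PLG+EACA+RNase. The PLG+EACA+RNase libraries lay above the untreated ones, and PLG+EACA overlapped both groups. With no filter on low values, Fosb differed from untreated cells by 0.22 with PLG+EACA (adjusted p = 0.157, limma) and by 0.38 with PLG+EACA+RNase (adjusted p = 0.0134, limma), and by 0.16 between the treatments (adjusted p = 0.379, limma).

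Atf3 and Batf encode partners that bind with JUN proteins and can restrain or redirect AP-1. Atf3, a stress-induced factor that limits inflammatory gene expression in macrophages, lies at chr1:191170296-191218039 on the minus strand (ENSMUSG00000026628.13). Its FPKM was 244, 257, 259 and 256 untreated, 321, 321, 346 and 298 under PLG+EACA and 359.8, 370.2, 383 and 357 under PLG+EACA+RNase. The 3 groups formed 3 separate ranges, lowest in untreated cells and highest with PLG+EACA+RNase. Atf3 rose by 0.34 with PLG+EACA (SE 0.0479, 1.27-fold, adjusted p = 6.25e-05, limma). It rose by 0.53 under PLG+EACA+RNase (SE 0.0479, 1.45-fold, adjusted p = 2.44e-06, limma). Between the treatments it was higher with PLG+EACA+RNase by 0.19 (SE 0.0479, 1.14-fold, adjusted p = 0.0182, limma), a call lost without PLG+EACA+RNase replicate 2 (adjusted p = 0.051, limma) or replicate 3 (adjusted p = 0.0596, limma).

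Batf, which acts with JUN and IRF proteins and is best known in lymphocytes and dendritic cells, lies at chr12:85686669-85709087 on the plus strand (ENSMUSG00000034266.6). Its FPKM was 23.6, 24.7, 24.3 and 23.4 untreated, 19.0, 17.5, 18.6 and 12.2 under PLG+EACA and 17.9, 24.0, 19.4 and 16.3 under PLG+EACA+RNase. PLG+EACA lay below untreated cells with replicate 4 lowest, and PLG+EACA+RNase spread widely, its replicate 2 inside the untreated range. Batf fell by 0.52 with PLG+EACA (SE 0.136, 1.44-fold, adjusted p = 0.00464, limma), but with median-of-ratios scaling the difference was -0.25 (adjusted p = 0.0987, limma). With PLG+EACA+RNase the difference was -0.31 (95% interval -0.61 to -0.02, adjusted p = 0.0593, limma), which did not pass. It passed in limma without PLG+EACA+RNase replicate 2 (-0.42, adjusted p = 0.0137), without PLG+EACA replicate 4 (adjusted p = 0.0115) and without both treated replicate 4 libraries (adjusted p = 0.0271), also in limma-voom on the recovered reads (-0.33, adjusted p = 0.0364), and was -0.09 after median-of-ratios scaling, at an adjusted p of 0.572. The treatments differed by 0.21 (95% interval -0.09 to 0.50, adjusted p = 0.292, limma), which did not pass. The summed dendritic cell markers, given above and mostly Itgax, had their lowest libraries in PLG+EACA, but single markers differed in direction. In untreated cells, PLG+EACA and PLG+EACA+RNase, mean FPKM of Itgax was 506.6, 386 and 405.2 and of Clec9a 4.97, 2.2 and 2.9. In the same order that of Zbtb46 was 3.47, 4.66 and 5.57 and of Ccr7 78.54, 99.85 and 121.6. The part of these markers in the Batf values was not tested.

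Of the 9 tested members, the small MAF genes had the largest increases against untreated cells. Mafk lies at chr5:139791513-139802653 on the plus strand (ENSMUSG00000018143.10). Its FPKM was 14.8, 15.3, 14.2 and 15.4 untreated, 34.5, 35.9, 36.5 and 32.5 under PLG+EACA and 32.6, 31.8, 28.8 and 34.7 under PLG+EACA+RNase. The lowest treated library lay far above the highest untreated one, and the treatments overlapped. Mafk rose by 1.20 with PLG+EACA (SE 0.0585, 2.29-fold, adjusted p = 4.94e-08, limma). It rose by 1.07 under PLG+EACA+RNase (SE 0.0585, 2.10-fold, adjusted p = 8.75e-08, limma). The treatments differed by -0.12 (95% interval -0.25 to 0.00, adjusted p = 0.148, limma), which did not pass, but was called lower, at -0.20 (adjusted p = 0.0228, limma), without both treated replicate 4 libraries. Tmem184a on the opposite strand shares 169 bases, 4.33% of the Mafk exons, at an FPKM of 0.068 to 0.371.

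Maff, the small MAF gene most often described as inducible by stress and cytokines, lies at chr15:79346621-79359076 on the plus strand (ENSMUSG00000042622.14). Its FPKM was 18.6, 17.4, 18.1 and 19.1 untreated, 41.0, 35.9, 43.5 and 32.2 under PLG+EACA and 49.6, 52.8, 48.2 and 46.9 under PLG+EACA+RNase. As for Atf3, the 3 groups did not overlap, with PLG+EACA in the middle. Maff rose by 1.03 with PLG+EACA (SE 0.0814, 2.04-fold, adjusted p = 8.53e-07, limma). It rose by 1.41 under PLG+EACA+RNase (SE 0.0814, 2.65-fold, adjusted p = 1.22e-07, limma). Between the treatments Maff was higher with PLG+EACA+RNase by 0.38 (SE 0.0814, 1.30-fold, adjusted p = 0.0114, limma), and this call held with each of the 12 libraries left out in turn (adjusted p 0.00755 to 0.0397, limma).

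The comparison of PLG+EACA+RNase with PLG+EACA asks what RNase exposure of the preparation changed, with no group that received RNases alone. Of the 9 tested members 3 were called, Maff, Atf3 and Jun, all higher with PLG+EACA+RNase, beside 20.8% of all genes (12.1% higher and 8.73% lower). Groups did not overlap in 2 of them, Maff and Atf3, as in 18.1% of all genes. The median difference over the 9 was 0.19, against 0.04 for all genes tested. The counts after median-of-ratios scaling were again 3 higher and 0 lower, beside 10.6% and 11.4% of all genes. At an adjusted p under 0.05, limma and limma-voom on the recovered reads each called 0 members lower. Only Jund was lower at an unadjusted p under 0.05 in limma, with an adjusted p of 0.112 in each of the 2 fits. The number of members called was 1 (Maff) without PLG+EACA+RNase replicate 2 or 3, and 5 without both treated replicate 4 libraries, when Jund and Mafk were also called, both lower. The count over all genes moved with single libraries as well, from 2324 to 1452 without PLG+EACA replicate 4, to 947 and 929 without PLG+EACA+RNase replicates 2 and 3, and to 3180 without its replicate 4.

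Set beside each other within a library, the members stood in different proportions in the groups. The summed FPKM of the 10 genes was 575.9 ± 14.9 untreated, 778 ± 27.6 under PLG+EACA and 842.1 ± 15.6 under PLG+EACA+RNase (mean ± SD, n = 4). Junb made up 57.4% ± 0.769 of the summed JUN genes untreated, 72.8% ± 1.13 under PLG+EACA and 73.4% ± 1.14 under PLG+EACA+RNase. In each treatment the lowest library lay above the highest untreated one, at 71.4% and 71.9% against 58.4%. Fosl2 made up 85.2% ± 1.22 of the summed FOS genes untreated, 94.3% ± 1.21 under PLG+EACA and 92.5% ± 0.89 under PLG+EACA+RNase. The small MAF genes went from 5.77% ± 0.222 of the 10-gene sum to 9.37% ± 0.57 and 9.67% ± 0.502, while Atf3 alone stayed the largest single part, at 44.1% ± 0.364, 41.3% ± 1.3 and 43.7% ± 1.81. These are proportions of transcript levels and were not tested.

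**Figure D3:**
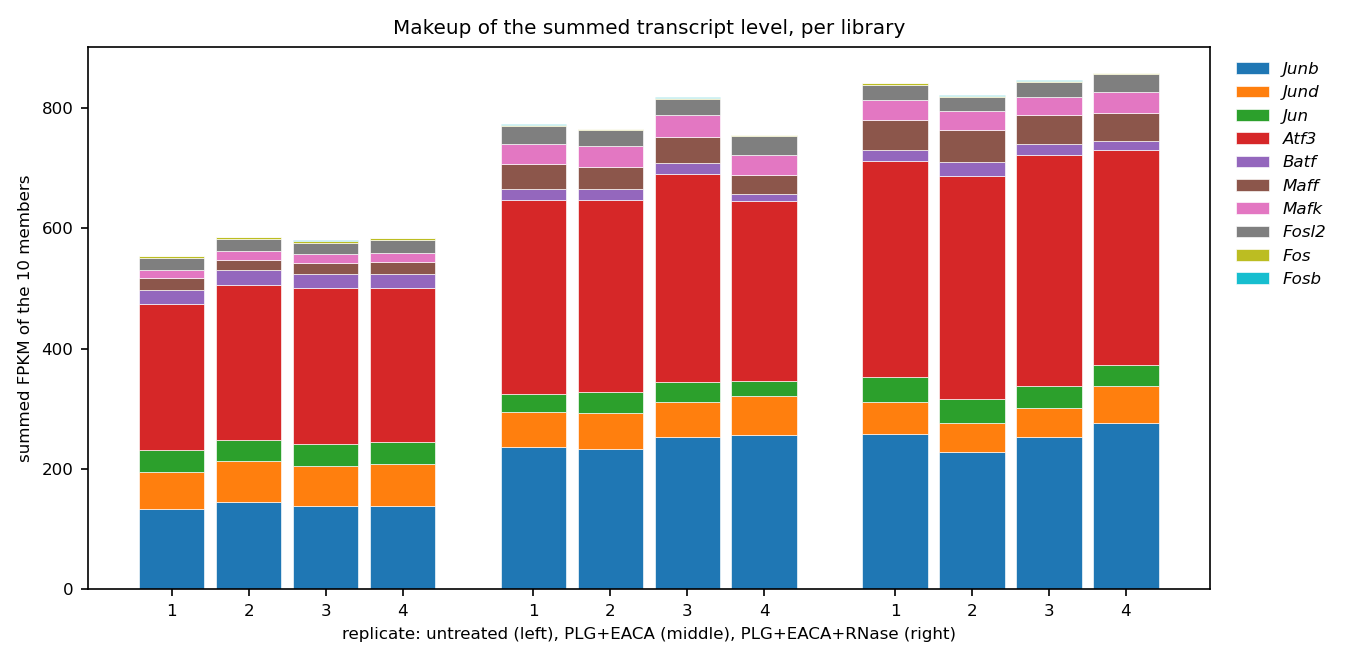
Summed FPKM of the 10 genes in each library, stacked by gene, with replicates 1 to 4 of untreated cells on the left, of PLG+EACA in the middle and of PLG+EACA+RNase on the right. Atf3 and Junb make up most of every bar, Fos and Fosb are barely visible, and the Junb, Maff and Mafk segments are taller in all 8 treated libraries than in the 4 untreated ones.

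Ratios within a library do not depend on scaling between libraries. Junb stood 3.85 times above Jun in untreated cells on average, 8.02 times with PLG+EACA and 6.61 times with PLG+EACA+RNase. Fosl2 stood 5.86, 18.5 and 13.9 times above Fos in the same order. The ratio of Maff to Mafk was 1.23 (1.14 to 1.27) untreated, 1.09 (0.988 to 1.19) under PLG+EACA and 1.55 (1.35 to 1.67) under PLG+EACA+RNase. Its ranges in the treatments did not overlap.

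Replicate 4 of the treatments took an end place among its group for most members. With PLG+EACA it was the lowest library for 6 of the 10 genes and the highest for 3, and with PLG+EACA+RNase the lowest for 5 and the highest for 4. In untreated cells replicate 4 was the lowest for 2 and the highest for 4. The labels give no batch that would set these libraries apart.

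Other bZIP genes, from a list of 39 of which 32 were tested, were mostly lower than in untreated cells on the deposited scale, like the genes as a whole. With PLG+EACA 6 rose and 19 fell (median -0.24, against -0.26 for all genes), and with PLG+EACA+RNase 7 rose and 18 fell (median -0.25, against -0.20). Over all genes tested 14.9% were higher and 53.4% lower in the first comparison, and 16% and 48.4% in the second. After median-of-ratios scaling 9 were higher and 11 lower under PLG+EACA, and 7 higher and 10 lower under PLG+EACA+RNase. Batf3, a partner of JUN and IRF proteins needed for a class of dendritic cells, fell from an FPKM of 37.1 ± 2.49 to 14.7 ± 1.29 with PLG+EACA (-1.31, adjusted p = 1.12e-07, limma) and to 15.6 ± 1.14 with PLG+EACA+RNase (-1.23, adjusted p = 1.57e-07, limma). Batf2 went the other way, from 4.03 ± 0.588 to 17.3 ± 3.81 with PLG+EACA (1.96, adjusted p = 7.49e-06, limma), and overlaps Arl2. Cebpd, a C/EBP factor that overlaps Spidr, fell from 13.6 ± 0.888 to 5.20 ± 0.716 and 3.35 ± 0.713, and was lower with PLG+EACA+RNase than with PLG+EACA (-0.57, adjusted p = 0.0108, limma).

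The other bZIP genes named by p were Xbp1, a factor of the unfolded protein response (-0.72 under PLG+EACA), and, for PLG+EACA+RNase, the stress factor gene Atf5 (-0.97, overlapping Nup62) and Nfe2l1, which controls proteasome genes (-0.58), all lower. Between the treatments 3 of the 32 rose and 3 fell, a share of calls close to that over all genes (12.1% higher and 8.73% lower). Of the 32, Fosl1 was under an FPKM of 1 in all untreated libraries and Creb3l2 in all PLG+EACA libraries. They passed the filter on low values through the groups where they were higher. The counts and medians of the 32 include both genes, and their calls are not to be read as a result. Jdp2, a repressor that pairs with JUN, went from 9.06 ± 2.19 to 13.7 ± 1.81 (0.59, adjusted p = 0.0236, limma), a call lost without PLG+EACA+RNase replicate 2 (adjusted p = 0.0728, limma) or 3 (adjusted p = 0.0668, limma) and with no filter on low values (adjusted p = 0.0527, limma). Creb3l2, a membrane-bound bZIP factor, is in the count of 3 that rose. It was under an FPKM of 1 in all PLG+EACA libraries, so no test of it is given. Nfe2l1 differed by -0.19 and lost its call without PLG+EACA replicate 1, 2 or 3 or PLG+EACA+RNase replicate 1, 2 or 3 (adjusted p 0.05 to 0.0919, limma) and with no filter (adjusted p = 0.0589, limma). The count of 6 called was 1 without PLG+EACA+RNase replicate 2 or 3, 3 without replicate 1 of either treatment or with no filter on low values, and 10 without PLG+EACA+RNase replicate 4.

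Kinases and other inducers of AP-1, 29 of 34 tested, included 6 genes that rose and 18 that fell in each treatment against untreated cells, beside 14.9% and 53.4% of all genes with PLG+EACA and 16% and 48.4% with PLG+EACA+RNase. The list's medians were -0.33 and -0.30, against -0.26 and -0.20 for all genes tested. With median-of-ratios scaling 9 were higher and 9 lower with PLG+EACA, and 7 higher and 9 lower with PLG+EACA+RNase, beside 27.3% and 26.4%, and 28.4% and 26.4%, of all genes. Mapk9, which encodes the JNK2 kinase that phosphorylates JUN, rose from 7.47 ± 0.385 to 11.5 ± 0.447 with PLG+EACA (0.59, adjusted p = 1.51e-06, limma) and to 12.6 ± 0.575 with PLG+EACA+RNase (0.72, adjusted p = 4.71e-07, limma). Mapk14, the p38 alpha kinase gene, fell (-0.60 and -0.48), as did Rps6ka1, a kinase downstream of ERK (-0.74 and -0.60), and Itch, a ubiquitin ligase that targets JUN proteins (-0.44 and -0.59). Between the treatments 2 were higher and 6 lower with PLG+EACA+RNase, beside 12.1% and 8.73% of all genes, among them the upstream kinase genes Map3k1 (0.42), Map3k5 (-0.41) and Map2k1 (-0.38) and the Fos activator gene Elk4 (-0.22, overlapping Mfsd4a). That count of 8 was 5, 5 and 4 without PLG+EACA+RNase replicates 1, 2 and 3.

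Genes reported as AP-1 targets, many of which also respond to NF-kB, were tested for 31 of 32. The list was chosen with earlier results of these data known and was not tested as a set. With PLG+EACA 17 rose and 7 fell (median 0.45), and with PLG+EACA+RNase 17 rose and 5 fell (median 0.44). Over all genes 14.9% were higher and 53.4% lower, and 16% and 48.4%, in these comparisons. After median-of-ratios scaling 20 targets were higher and 1 lower with PLG+EACA, beside 27.3% and 26.4% of all genes, and 19 higher and 1 lower with PLG+EACA+RNase, beside 28.4% and 26.4%. Of the 31, Csf2, Fosl1 and Nr4a1 were under an FPKM of 1 in all untreated libraries. They passed the filter on low values through groups where they were higher. The counts and medians include these genes, and their calls are not to be read as a result. Ptgs2, the inducible cyclooxygenase gene, rose from 71.4 ± 4.62 to 703 ± 110.4 with PLG+EACA (9.71-fold, adjusted p = 6.44e-09, limma) and to 486 ± 69.3 with PLG+EACA+RNase (6.72-fold, adjusted p = 1.69e-08, limma). The cytokine gene Tnf rose 3.71-fold and 2.94-fold and the collagenase gene Mmp13 2.72-fold and 2.22-fold. Il6 rose 9.04-fold with PLG+EACA and 4.46-fold with PLG+EACA+RNase. Hmox1, a heme-degrading enzyme gene with enhancers bound by small MAF pairs, rose 2.85-fold with PLG+EACA and 4.10-fold with PLG+EACA+RNase.

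Between the treatments 3 of these 31 genes were higher and 5 lower with PLG+EACA+RNase, beside 12.1% and 8.73% of all genes. Ptgs2 (-0.53, adjusted p = 0.0114), Il6 (-1.02, adjusted p = 0.0150) and the membrane protease gene Mmp14 (-0.31, adjusted p = 0.0155, lost without PLG+EACA+RNase replicate 2, adjusted p = 0.0506) were lower in limma. The cytokine gene Csf2, which is in the count of 5, had an FPKM of 0.169 to 0.633 untreated, 1.47 to 1.71 under PLG+EACA and 0.29 to 0.797 under PLG+EACA+RNase. It passed the filter only through PLG+EACA, where it was high, so its values are given with no test. The count of 8 was 5 with no filter on low values, 4 without PLG+EACA replicate 4, 5, 3 and 4 without PLG+EACA+RNase replicates 1, 2 and 3, and 15 without its replicate 4. The direction of Ptgs2, Il6 and Mmp14 was the same in all alternatives run.

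**Figure D4:**
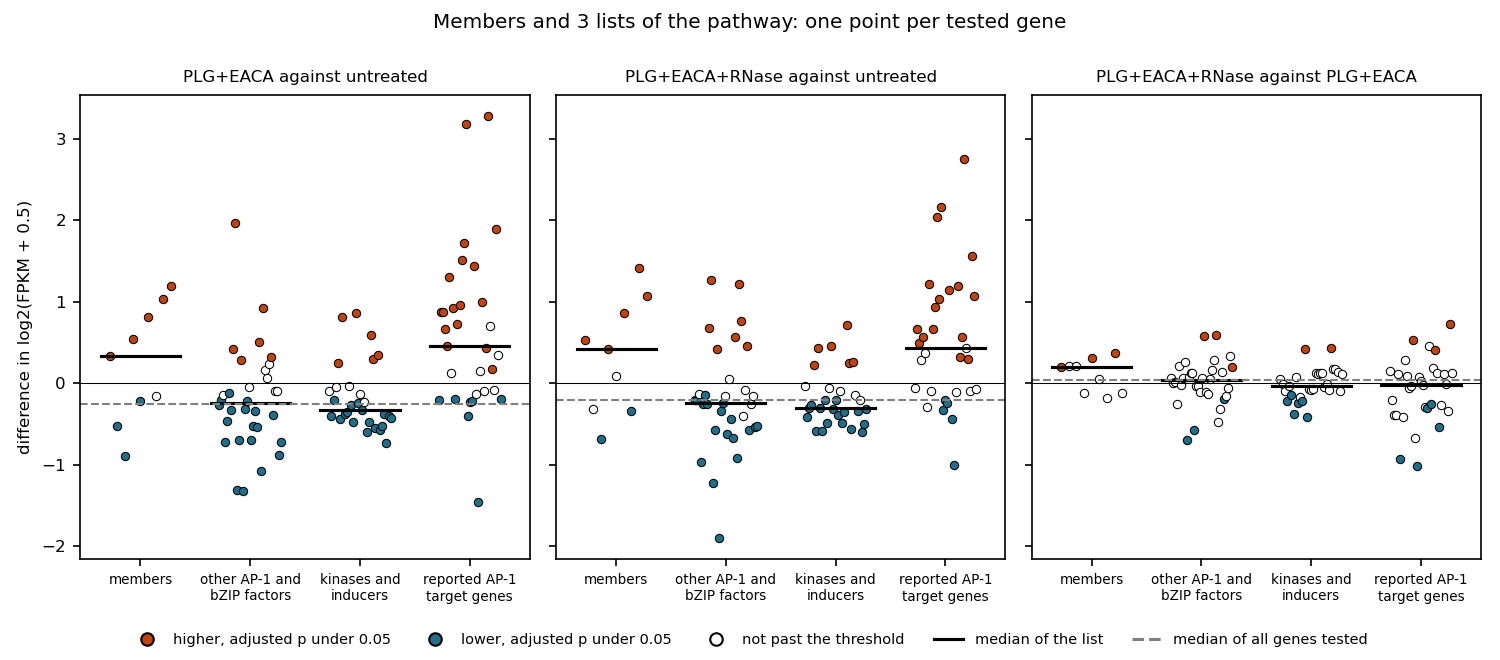
Difference in log2(FPKM + 0.5) for every tested member and every tested gene of the 3 lists, 1 panel per comparison; filled points passed an adjusted p under 0.05, the bar is the median of a list and the dashed line the median of all genes tested. Against untreated cells the medians of the members (0.34 and 0.41) and of the reported targets (0.45 and 0.44) lie above the dashed line. Those of the other bZIP factors (-0.24 and -0.25) lie near it. Members and lists were chosen with earlier results of these data known, and no list was tested as a set.

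For each tested member the genes whose log2(FPKM + 0.5) followed it most closely over the 12 libraries are given as a description; the points share 3 groups and library depth, so high values are common. Maff went most closely with Suco, an endoplasmic reticulum protein gene (Pearson r = 0.993), and Gng4, a G protein subunit gene (r = 0.993), and Mafk with the zinc exporter gene Slc30a1 (r = 0.992) and the apoptosis regulator gene Cflar (r = 0.992). Junb went with Marcksl1 (r = 0.989) and Ttc39c (r = 0.988), and Fosl2 with Tbrg1 (r = 0.981, overlapping Siae) and Kctd10 (r = 0.979). Atf3 went with Smad7, an inhibitor of TGF-beta signalling (r = 0.989), and Hspa1a (r = 0.988), a heat shock gene whose near-identical copy Hspa1b makes its counts uncertain. Hspa1a had an FPKM of 0.335 ± 0.118 untreated, 5.87 ± 2.21 under PLG+EACA and 25.9 ± 9.59 under PLG+EACA+RNase. Gng4 had 0.171 ± 0.027, 1.24 ± 0.308 and 2.03 ± 0.243 in the same order. Both genes passed the filter on low values only through treated libraries, where they were higher, so their r is not to be read as a result.

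Among members that were lower in a treatment, Fos went with Rgs12, a regulator of G protein signalling (r = 0.977), and Tspan3 (r = 0.975). Rgs12 had an FPKM of 3.93 ± 0.16, 1.73 ± 0.214 and 1.99 ± 0.148 in the 3 groups, close to the levels of Fos. Batf went with Morc2a (r = 0.981, overlapping Tug1) and Pip4k2c (r = 0.975), Jund with Gnb2 (r = 0.973) and Uqcrfs1 (r = 0.966), and Jun with Zfp746 (r = 0.959) and Eif4ebp1 (r = 0.955). The values for Jun were the lowest of the 9.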

How the data were processed

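Total RNA libraries (directional kit, per the labels' protocols) of 12 samples in 3 groups of 4 were used. The authors deposited FPKM values for 32246 genes with gene starts, ends and lengths. Per the submitters' processing notes, STAR 2.7.11a, cutadapt 4.5, DESeq2 1.40.2, featureCounts 2.0.6, FastQC 0.12.1 and the build GRCm38.p6 were used, with no role given, and whether counting used the strand is not given in the sources used here. The coordinates of all 10 members equal those of GENCODE M21. FPKM times length came in whole reads (100% of values within 0.1), which gave the depth per library.

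The 11165 genes that reached FPKM 1 in 4 or more of the 12 libraries were tested on log2(FPKM + 0.5), a scale that understates changes of low genes, with limma 3.58.1 in R 4.3.3 (1 model of 3 group means, eBayes with trend, two-sided). P-values were adjusted by Benjamini-Hochberg over all genes tested within a comparison, threshold 0.05. The fit was first run on simulated independent noise with few genes changed in 1 group. That setting is unlike these data, where most genes were called against untreated cells, so nothing about the results is concluded from it. A fold is 2 to the power of the log2 difference. Named are all 10 members, up to 4 genes of each list with the smallest p per comparison, and the 2 named genes most correlated with each tested member. The members and lists were chosen with earlier results of these data known. Libraries of 1 group differed by more than sampling noise (chi-square per degree of freedom 3.21 to 35 over 18 pairs), so none was counted as a repeat. The labels do not say that a replicate number marks a shared animal, batch or day, and the model had no replicate block. Alternatives were the pseudocount, the filter, median-of-ratios scaling, a replicate block, limma-voom on recovered reads and leaving out libraries. The pair of treated replicate 4 libraries was left out as an alternative chosen after seeing the data. Protein sequences were not used here.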

Additional observations from a re-analysis of the deposited data

Results flagged for a closer look

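In 2 of the 30 groups of 4 libraries (10 genes in 3 groups), 1 library stood apart by more than Dixon's 95% critical value for the gap over the range, which chance gives in about 1 in 20 groups. Jund had an FPKM of 66.0 in PLG+EACA replicate 4, against 57.4 to 58.8 in the other 3 libraries, a gap of 0.838 of the range. Atf3 had an FPKM of 243.7 in untreated replicate 1, against 256.3 to 258.7 in the others, a gap of 0.835 of the range.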

How the results depend on the processing

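Over 27 differences of members (9 genes, 3 comparisons) and 19 alternatives each, 477 of 513 values kept their direction and side of the threshold, 16 passed it newly, 18 no longer passed and 2 changed sign. The 2 were Jun, 0.054, and Jund, 0.118, both with PLG+EACA against untreated under median-of-ratios scaling; the cause was not tested. Fos, Fosl2, Junb, Atf3, Maff and Mafk kept their calls against untreated cells under all 19. Leaving out 1 library in turn gave 929 to 3180 genes and 1 to 4 members called between the treatments, with 5 members called without both treated replicate 4 libraries. Genes called against untreated cells ran from 6933 to 7704 and from 6408 to 7490 with 1 library left out. Of 888 values of other genes named, 867 kept their call, 8 passed newly and 13 no longer passed. The 888 include values of Fosl1, Creb3l2 and Csf2, which passed the filter on low values only through groups where they were higher. Calls of these genes that were kept are not to be read as a result. Of 171 counts of list genes called, 155 stayed within 1.5 times, and the 16 that moved were all between the treatments.

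The labels do not tie replicate numbers to a shared source. Same-numbered libraries of different groups correlated at -0.176 to 0.332 (median 0.016) in their deviations from the group means, over 0.1 in 3 of 12 pairs, against 3 of 36 pairs of other numbers (-0.336 to 0.118, median 0.002). Since not every same-numbered pair was over 0.1, the libraries were not treated as paired, while 7 of 12 libraries went best with their own number, a hint from the data and not the design. The replicate block gave 7697, 7284 and 2678 genes called, against 7624, 7191 and 2324 without it, and 9, 8 and 4 members, adding Jund with PLG+EACA, Batf with PLG+EACA+RNase and Jund between the treatments. It gave 13 reported targets called between the treatments, against 8. Depth limited Fosb most, at 3 to 47 reads per library.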

Other observations

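Fos and Batf lie on the same stretch of chromosome 12 with the bZIP repressor gene Jdp2 between them, 121.8 kb after Fos and 46.8 kb before Batf. The 3 neighbours, picked after their values were seen, differed in direction. Fos fell with both treatments. Jdp2 had an FPKM of 7.85 ± 0.741 untreated, 9.06 ± 2.19 under PLG+EACA and 13.7 ± 1.81 under PLG+EACA+RNase (mean ± SD, n = 4). It rose with PLG+EACA+RNase against untreated cells (0.76, adjusted p = 0.00116, limma), while with PLG+EACA it differed by 0.16 (adjusted p = 0.370, limma). The latter passed without PLG+EACA replicate 4 (0.35, adjusted p = 0.0107, limma), without both treated replicate 4 libraries (0.35, adjusted p = 0.00443, limma) and after median-of-ratios scaling (0.43, adjusted p = 0.025, limma). Batf passed the test as lower under PLG+EACA on the deposited values (-0.52) but not after median-of-ratios scaling (-0.25).

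Relatives of the members, also picked after their values were seen, included Fosl1 (FRA1), the FOS gene closest in kind to Fosl2. Fosl1, which overlaps Ccdc85b, had an FPKM of 0.293 to 0.481 untreated, 0.983 to 1.65 under PLG+EACA and 1.30 to 1.78 under PLG+EACA+RNase. It passed the filter on low values only through the treated libraries, so no test is given. Mafg, the third small MAF gene, which overlaps Sirt7, had a higher level than Maff or Mafk in untreated cells, at 48.9 ± 2.37, and rose by 0.32 (adjusted p = 0.00939, limma) and 0.46 (adjusted p = 0.00113, limma). Bach1, a repressor that pairs with small MAF proteins at Hmox1, rose from 19.2 ± 0.623 to 26.0 ± 3.56 (0.42, adjusted p = 0.00129, limma) and 31.1 ± 2.92 (0.68, adjusted p = 4.10e-05, limma).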
